A study of Homo sapiens with 8 samples.

Results

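The 9 genes described here encode or control the machinery that displays peptides on major histocompatibility complex (MHC) class I molecules. They are the heavy chain genes *HLA-B*, *HLA-C*, *HLA-E* and *HLA-F*, the light chain gene *B2M*, the peptide loading genes *TAP1*, *TAP2* and *TAPBP*, and the regulator *NLRC5*. The genes were listed by their known role, with earlier results of these data known, and their probes were found by matching the RefSeq accession of each probe to a gene symbol. All 9 genes were found, with 16 probes, among 22439 genes that could be named on the array. Each gene had at least 1 probe well above background in every group of arrays.

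Class I molecules are built from a heavy chain and the light chain beta-2 microglobulin in the endoplasmic reticulum. The TAP transporter, a dimer of TAP1 and TAP2, brings in peptides made by the proteasome, and tapasin (TAPBP) holds the empty heavy chain next to it until a peptide binds. NLRC5 is a transcriptional activator of class I genes, and interferon is a strong inducer of the whole set, which many lung tumors express at a reduced level to escape T cells.

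The data were 8 arrays with 2 colors, each with treated RNA in Cy5 (red) and control RNA of the same cell line in Cy3 (green), all on 1 slide and without a dye swap. EBC-1 and SK-MES-1, both lung squamous cell carcinoma lines, received *miR-150-3p* (1 array each), and the labels describe their control both as mock and as not transfected. SBC-3, a small cell lung cancer line, received *siDONSON-1*, *siDONSON-2* or *siDONSON-3*, siRNAs against the replication factor gene *DONSON* (1 array each, 3 arrays), with a control described in the same way. A549, a lung adenocarcinoma line, had *LOXL2*, a lysyl oxidase gene, edited with CRISPR/Cas9 (A549-GE1, A549-GE2 and A549-GE3, 3 arrays), against A549 cells without editing. The labels do not say whether the edited samples are clones or whether control RNA came from separate cultures. The spread between arrays that the p-values measure may thus be technical. It was estimated once for the 3 groups together. For *miR-150-3p* the p-values therefore measure mostly the spread within the SBC-3 and A549 arrays, and little of that between EBC-1 and SK-MES-1. As a treatment and its cell line are the same arrays, effects of a treatment and of the line cannot be told apart.

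The targeted genes were read first. The log2 ratio of *DONSON* was -2.15, -1.79 and -2.11 in the *siDONSON* arrays, and that of *LOXL2* was between -2.67 and -2.49 in the 3 edited arrays, and *DONSON* was also -1.02 in EBC-1. The log2 ratios of *siDONSON-2* had a Pearson r of 0.210 with *siDONSON-1* and 0.332 with *siDONSON-3*, over 12853 genes, whereas *siDONSON-1* and *siDONSON-3* had an r of 0.483, and the 3 A549 arrays had an r of 0.774 to 0.822 with each other. Of 6 squamous markers, 1 was well above background in EBC-1 controls (*SOX2*) and 3 in SK-MES-1 controls (*KRT14*, *TP63* and *SOX2*), and *KRT5*, *KRT6A* and *DSG3* were below it in all 4 lines. In SBC-3, 3 of 6 neuroendocrine markers were above background (*NEUROD1*, *CHGA* and *SYP*), and *INSM1* was not. In A549, 2 of 5 adenocarcinoma or alveolar markers were above it (*NAPSA* and *KRT7*), and *NKX2-1* and *SFTPB* were not. These markers were not particular to their lines. Of the adenocarcinoma or alveolar ones, 3 were above background in SK-MES-1, 2 in EBC-1 and 1 in SBC-3. Of the squamous ones, 2 were in SBC-3 and 1 in A549, and *SOX2* was higher in SBC-3 (14.29) than in EBC-1 (7.61). Of the neuroendocrine ones, 1 was in SK-MES-1, 1 in A549 and 0 in EBC-1.

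The interferon response of the pathway is known to act through short motifs before the start sites, and the 5 sequences that hold the interferon motif searched here are shown. RefSeq windows were at hand for 7 of the 9 genes (all except *HLA-E* and *NLRC5*), with 2 windows for *TAP1*, on build GRCh38.p14. The 250 bases before the start were searched on both strands for GAAA and GAAA set 2 bases apart (the core of the interferon-stimulated response element), CCAAT (the NF-Y box), TGACG (the core of the cyclic AMP response element) and GGG and TCCC set 3 bases apart (an NF-kB site). Capitals mark every match, and overlapping matches run together. The windows below run 5′ to 3′ on the strand of the gene, and end at the base before the start.
HLA-F: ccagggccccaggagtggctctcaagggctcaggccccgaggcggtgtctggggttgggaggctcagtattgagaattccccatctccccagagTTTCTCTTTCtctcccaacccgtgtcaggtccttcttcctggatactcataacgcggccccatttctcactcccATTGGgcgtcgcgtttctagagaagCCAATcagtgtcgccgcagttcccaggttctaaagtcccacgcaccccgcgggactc
B2M: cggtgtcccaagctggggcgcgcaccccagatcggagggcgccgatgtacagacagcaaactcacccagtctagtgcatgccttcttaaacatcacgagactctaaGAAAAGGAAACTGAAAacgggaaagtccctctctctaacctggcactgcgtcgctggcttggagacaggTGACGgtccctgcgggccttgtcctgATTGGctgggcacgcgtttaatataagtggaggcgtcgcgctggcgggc
TAP1: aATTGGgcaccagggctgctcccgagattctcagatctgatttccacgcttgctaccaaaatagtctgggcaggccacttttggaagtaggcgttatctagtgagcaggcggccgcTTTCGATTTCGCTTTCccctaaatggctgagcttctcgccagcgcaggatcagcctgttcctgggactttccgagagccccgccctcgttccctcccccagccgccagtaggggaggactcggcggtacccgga
TAP2: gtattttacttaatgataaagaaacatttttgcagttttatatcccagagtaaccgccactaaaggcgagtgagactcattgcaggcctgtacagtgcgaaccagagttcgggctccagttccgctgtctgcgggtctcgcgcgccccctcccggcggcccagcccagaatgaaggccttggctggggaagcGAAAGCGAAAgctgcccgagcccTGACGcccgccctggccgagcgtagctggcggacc
TAPBP: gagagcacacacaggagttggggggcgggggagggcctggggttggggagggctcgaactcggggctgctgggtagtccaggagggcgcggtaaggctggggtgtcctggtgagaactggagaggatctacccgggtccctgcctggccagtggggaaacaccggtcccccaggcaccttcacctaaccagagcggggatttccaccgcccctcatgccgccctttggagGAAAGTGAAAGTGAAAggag
These are chr6:29723184-29723433 (plus strand) for *HLA-F*, chr15:44711267-44711516 (plus strand) for *B2M*, chr6:32853705-32853954 (minus strand) for *TAP1*, chr6:32838740-32838989 (minus strand) for *TAP2* and chr6:33314079-33314328 (minus strand) for *TAPBP*.

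The interferon motif was present in 5 of the 7 genes, namely the 5 shown, and in 3.02% of 35116 windows of the same length. In *TAPBP* it occurred as an overlapping pair that ended 5 bases before the start, in *TAP2* it ended 49 bases before it, and in *TAP1* an overlapping pair lay on the opposite strand and ended 119 bases before it. *B2M* also held an overlapping pair, with the nearest match ending 129 bases before the start, and *HLA-F* a single match on the opposite strand 147 bases before it. CCAAT was present in 5 of 7 genes (*HLA-B*, *HLA-C*, *HLA-F*, *B2M* and *TAP1*) and in 32% of all windows. TGACG was present in 4 of 7 (*HLA-B*, *HLA-C*, *B2M* and *TAP2*) and in 21.2% of all windows. The NF-kB letters were present in *HLA-B* alone, against 6.73% of all windows. A match is a string of letters and not a measured binding site.

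After *miR-150-3p* transfection, all 9 genes had a log2 ratio above 0 in both cell lines (*NLRC5* turned to a mean of -0.09 by the probe measured on all 8 arrays), and *HLA-F* and *TAPBP* rose past the test (2 of 9, against 3.39% of all 14219 genes tested). The test was limma on the log2 ratios of treated over control RNA, with 3 group means fitted to all 8 arrays, and an adjusted p (Benjamini-Hochberg over all genes of the group) below 0.05 was called. At an unadjusted p below 0.05 there were 8 of 9, against 29.1% of all genes. With each array centered on its median, the mean of *TAP2* turned to -0.00681, and the other 8 stayed above 0. The median of the 9 genes was 0.36 on the log2 scale, against 0.03 for all genes. In the *siDONSON* arrays, all 9 group means were above 0 as well (*B2M* turned to -0.00245 with each array centered on its median), with a median of 0.29 against 0.03 for all genes, and none passed the test (0 of 9, against 6% of all 14443 genes), with 6 of 9 at an unadjusted p below 0.05 (25.3% of all genes). Reprocessing from the median spot signals with normexp background correction and loess dye normalization gave 3 of 9, against 11.1% of all genes. After *miR-150-3p* it gave 7 of 9, against 11.2%. In the *LOXL2*-edited arrays, *HLA-E* and *NLRC5* rose and *TAP2* fell (3 of 9, against 14% of all 15523 genes), with a median of 0.18 against 0.02 for all genes. With normexp and loess, 4 of 9 were called there, against 20.4%. Differences between groups were tested with the same limma model, on the probes counted on all 8 arrays. Between *miR-150-3p* and *siDONSON*, 0 of 9 passed (2.92% of all 12840 genes), with 3 of 9 at an unadjusted p below 0.05, near the 23.3% of all genes, and 0 of 9 with normexp and loess, against 5.02%. Between *miR-150-3p* and *LOXL2*-edited arrays, 0 of 9 passed (3.5% of all genes), with 6 of 9 at an unadjusted p below 0.05 (21.9% of all genes) and 4 of 9 with normexp and loess (7.21%). Between *siDONSON* and *LOXL2*-edited arrays, *TAP2* passed (1 of 9, against 7.18% of all genes). At an unadjusted p below 0.05 there were 2 of 9, near the 25.4% of all genes, and 1 of 9 with normexp and loess, against 11.6%. The plot of the log2 ratios by array shows all of these values.

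**Figure D1:**
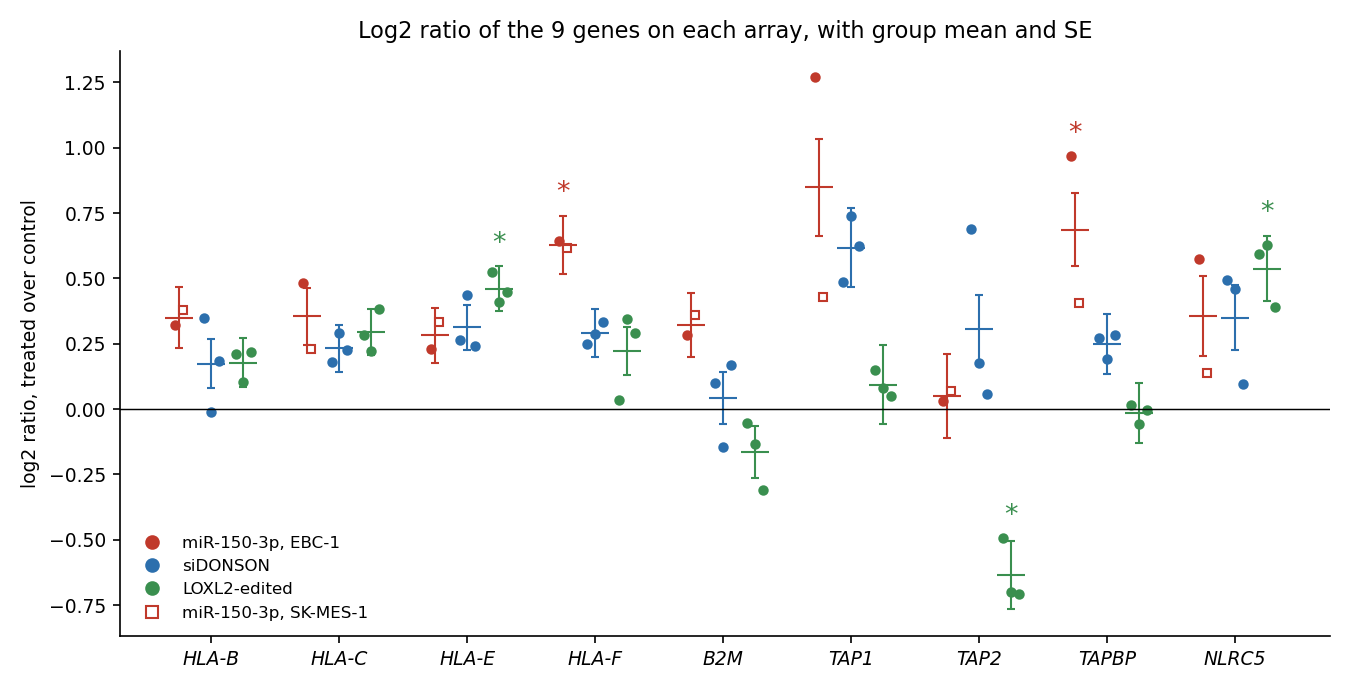
Log2 ratio of treated over control RNA (vertical axis) for each of the 9 genes on each of the 8 arrays (points), with the group mean (dash) and its limma SE (bars). An asterisk marks a mean past the test. The *miR-150-3p* points all lie above 0, with the largest value (1.27) for *TAP1* in EBC-1, and the 3 *TAP2* points of the *LOXL2*-edited arrays lie between -0.71 and -0.49.

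Among the heavy chains, *HLA-F*, a nonclassical class I gene, showed the most even response to *miR-150-3p*. Its log2 ratio was 0.64 in EBC-1 cells and 0.61 in SK-MES-1 cells, so that both lines were high by nearly the same amount. The mean was 0.63 (SE 0.11, n = 2 arrays, limma adjusted p = 0.0371), or 1.55-fold. In the other groups it was 0.25, 0.29 and 0.33 in the *siDONSON* arrays (adjusted p = 0.105 by limma) and 0.03, 0.34 and 0.29 in the *LOXL2*-edited arrays (adjusted p = 0.146 by limma). The values of *miR-150-3p* were thus above those of every other array. Over the probe that was measured on all 8 arrays, the difference was 0.32 from the *siDONSON* arrays (SE 0.12, limma adjusted p = 0.159) and 0.43 from the *LOXL2*-edited arrays (SE 0.12, limma adjusted p = 0.0866), and neither passed. With normexp and loess, *HLA-F* passed in all 3 groups, and its difference of *miR-150-3p* from the *LOXL2*-edited arrays passed too.

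*HLA-E*, which presents signal peptides of other class I chains to natural killer cells, rose in the *LOXL2*-edited arrays, with log2 ratios of 0.53, 0.41 and 0.45. The 3 arrays were close together, with a mean of 0.46 (SE 0.09, limma adjusted p = 0.0147), or 1.38-fold. Its ratios were 0.26, 0.44 and 0.24 in the *siDONSON* arrays (limma adjusted p = 0.074) and 0.23 in EBC-1 cells and 0.33 in SK-MES-1 cells (limma adjusted p = 0.131). The 8 values were all above 0, and those of *siDONSON-2* and the edited arrays overlapped. *HLA-E* was measured by a pair of probes that did not move alike. The brighter, A_33_P7431456, read 0.72, 0.54 and 0.61 in the edited arrays, and the other, A_32_P460973, read 0.34, 0.28 and 0.29. In EBC-1 the order was opposite, with 0.02 for the brighter probe and 0.44 for the other. Fitted probe by probe, only the brighter passed in the edited arrays (limma adjusted p = 0.018 against 0.118).

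*HLA-B* and *HLA-C*, classical heavy chain genes that present peptides to cytotoxic T cells, had ratios mostly above 0 that passed in no group by the processed intensities. With normexp and loess, both passed after *miR-150-3p*, and *HLA-C* also passed in the *LOXL2*-edited arrays. *HLA-C* was 0.48 (EBC-1) and 0.23 (SK-MES-1) after *miR-150-3p*, 0.18, 0.29 and 0.23 in the *siDONSON* arrays, and 0.28, 0.22 and 0.38 in the *LOXL2*-edited arrays. All 8 values were above 0, with group means from 0.23 to 0.36 that overlapped and did not pass the test (limma adjusted p between 0.0671 and 0.159). *HLA-B* was 0.32 (EBC-1) and 0.38 (SK-MES-1) after *miR-150-3p*, 0.35, -0.01 and 0.18 in the *siDONSON* arrays, and 0.21, 0.10 and 0.22 in the edited arrays. The lowest of these was *siDONSON-2*, the array that correlated least with the other 2 of its group, and no group passed (limma adjusted p between 0.107 and 0.294). Heavy chain genes are near-identical over much of their length and vary between people, so a probe of one may bind RNA of another or bind the alleles of a line unequally, which was not tested.

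*B2M*, the light chain that every class I molecule needs, was 0.28 (EBC-1) and 0.36 (SK-MES-1) after *miR-150-3p*. It was 0.10, -0.14 and 0.17 in the *siDONSON* arrays and -0.05, -0.13 and -0.31 in the *LOXL2*-edited arrays. The *miR-150-3p* values lay above those of every other array. No group mean passed (limma adjusted p = 0.134, 0.827 and 0.305). The difference of *miR-150-3p* from the *LOXL2*-edited arrays was 0.49 (SE 0.15, limma adjusted p = 0.115) and did not pass. With normexp and loess, both this difference and the mean after *miR-150-3p* passed.

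Among the peptide loading genes, *TAP1* and *TAPBP* had the largest ratios after *miR-150-3p*, and *TAP2*, the partner of *TAP1* in the transporter, did not share them. *TAP1* was 1.27 in EBC-1 cells and 0.43 in SK-MES-1 cells, with a mean of 0.85 (SE 0.19) that did not pass (limma adjusted p = 0.0523). It was called at the same mean where both channels had to be above background (limma adjusted p = 0.0385) and, just under the threshold, with the brightest probe of each gene, within a range of 0.00402 to 0.348 over all alternatives. It was the only 1 of the 9 genes past a log2 ratio of 1 on the EBC-1 array, where 4.97% of all genes were, and none (0 of 9) was past 1 on the SK-MES-1 array, where 1.43% were. In the *siDONSON* arrays *TAP1* was 0.49, 0.74 and 0.62, all well above 0, with a mean of 0.62 (SE 0.15, limma adjusted p = 0.0572). In the *LOXL2*-edited arrays it was 0.15, 0.08 and 0.05, below every other array.

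*TAPBP*, which encodes tapasin, rose after *miR-150-3p* to a mean of 0.69 (SE 0.14, limma adjusted p = 0.0461), or 1.61-fold. Here too EBC-1 (0.97) was higher than SK-MES-1 (0.41). The SD between these arrays was 0.40, whereas the SE comes from the spread shared by the groups. *TAPBP* was 0.27, 0.19 and 0.28 in the *siDONSON* arrays (limma adjusted p = 0.224) and 0.02, -0.06 and -0.0046 in the *LOXL2*-edited arrays (limma adjusted p = 0.946). In this mean over its probes, the 3 groups did not overlap. The difference of *miR-150-3p* from the *LOXL2*-edited arrays was 0.70 (SE 0.17, limma adjusted p = 0.0662) and from the *siDONSON* arrays 0.44 (SE 0.17, limma adjusted p = 0.182). The 3 probes of *TAPBP* were set apart in height. Probe A_23_P365719, the brightest, read 1.1 in EBC-1, 0.63 in SK-MES-1, 0.50 to 0.73 in the *siDONSON* arrays and 0.23 to 0.41 in the edited arrays. Probes A_23_P259580 and A_33_P3325914 were between -0.26 and -0.11 in the edited arrays. By the brightest probe, SK-MES-1 lay within the *siDONSON* values, and by A_33_P3325914 SK-MES-1 (0.19) was below *siDONSON-3* (0.24). Only A_23_P259580 kept the groups apart. By the brightest probe alone, the mean in the *siDONSON* arrays was 0.63 and passed (limma adjusted p = 0.0349 over all probes).

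*TAP2* fell in the *LOXL2*-edited arrays, with log2 ratios of -0.49, -0.70 and -0.71. The mean was -0.63 (SE 0.13, limma adjusted p = 0.0204), or 0.644 of the control, and all 3 arrays were below every array of the other groups. It was 0.03 in EBC-1 cells and 0.07 in SK-MES-1 cells (limma adjusted p = 0.863). In the *siDONSON* arrays it was 0.69, 0.18 and 0.06, a wide spread led by *siDONSON-1* (limma adjusted p = 0.193). The *siDONSON* and *LOXL2*-edited arrays differed by 0.94 (SE 0.18, limma adjusted p = 0.0214). This call was lost without any single A549 array (limma adjusted p between 0.0685 and 0.0995, within a range of 0.0124 to 0.0995 over all alternatives). *TAP2* rests on probe A_33_P3214650, since its other probe was below background on all 8 arrays.

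*NLRC5*, the class I activator, rose in the *LOXL2*-edited arrays, with log2 ratios of 0.59, 0.63 and 0.39. The mean was 0.54 (SE 0.12, limma adjusted p = 0.0302), or 1.45-fold. It was 0.49, 0.46 and 0.10 in the *siDONSON* arrays (limma adjusted p = 0.136), where *siDONSON-3* was the low one. These values come from probe A_32_P416583, which was dim, with a processed green signal of 45.2 to 60.1 in the SBC-3 and A549 arrays. In the *miR-150-3p* arrays both probes were counted and went apart. Probe A_32_P416583 read 0.02 in EBC-1 cells and -0.20 in SK-MES-1 cells, whereas probe A_23_P26583 read 1.12 and 0.48 with a control signal not well above background. The mean over both, 0.36 (SE 0.15, limma adjusted p = 0.171), therefore has no settled direction, and by the probe measured on all 8 arrays it was -0.09. With normexp and loess on median signals, the mean of *NLRC5* in the edited arrays was 0.08 and it lost its call. The plot of single probes shows where the probes of a gene go together.

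**Figure D2:**
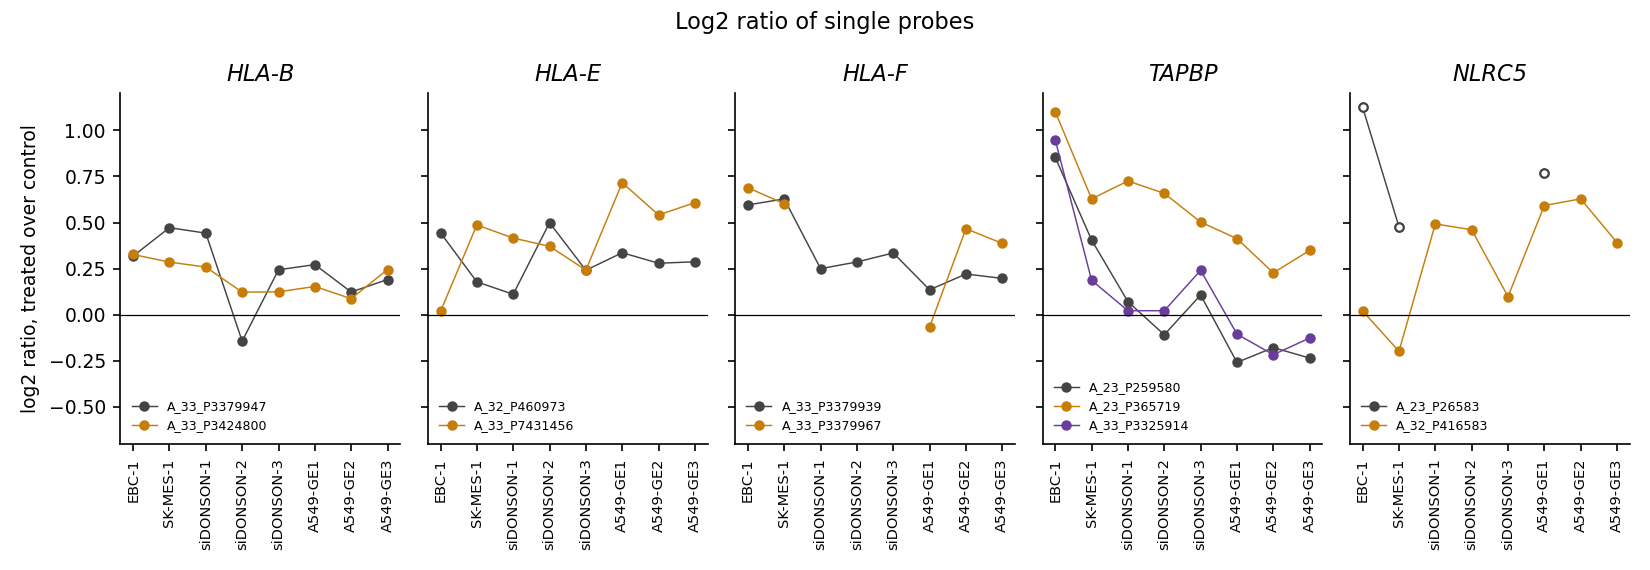
Log2 ratio of treated over control RNA (vertical axis) for single probes of 5 genes on the 8 arrays (horizontal axis), drawn where a probe was above background in either channel. Open points had a control signal not well above background. The probes of *HLA-F* lie together in the *miR-150-3p* arrays (0.60 to 0.69), and those of *NLRC5* in EBC-1 lie at 0.02 and 1.12.

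The calls depended on which arrays entered the shared estimate of the spread. Without any single A549 array, none of the 9 genes passed in any group (0 of 9 in each). Calls over all genes were then 33 to 50 of 14219 (*miR-150-3p*), 181 to 251 of 14443 (*siDONSON*) and 386 to 503 of 15523 (edited). Without *siDONSON-1* or *siDONSON-3*, none of the 9 passed in the *miR-150-3p* arrays, against 281 and 151 of all 14219 genes. Without *siDONSON-2* only *HLA-F* did, against 636 of all genes. The means of *HLA-F* after *miR-150-3p* stayed between 0.54 and 0.64 under all alternatives, and those of *TAPBP* between 0.41 and 0.97. The means of *HLA-E* and *TAP2* in the edited arrays stayed between 0.42 and 0.62 and between -0.71 and -0.40. Some of the 9 genes are bright on this array and others, such as *NLRC5*, are dim. Genes at least as bright as the median of the 9 had a median log2 ratio between -0.02 and 0.02 on every array. The medians of the 9 genes were 0.10 to 0.48. An effect of brightness or dye on the 9 genes was not tested.

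The rest of the pathway was described with 49 further genes listed by role. In the *miR-150-3p* arrays 4 of the 47 measured rose and none fell, against 3.39% of all genes called, with a median of 0.27. *ERAP1*, which trims peptides in the endoplasmic reticulum, was 0.76 in EBC-1 cells and 0.64 in SK-MES-1 cells (mean 0.70, SE 0.11, limma adjusted p = 0.0281). *PSMB9*, a catalytic subunit of the immunoproteasome, was 0.73 and 0.68 (mean 0.71, SE 0.12, limma adjusted p = 0.0328). *IRF9*, the DNA-binding part of the interferon-activated ISGF3 complex, was 1.13 in both (mean 1.13, SE 0.14, limma adjusted p = 0.0209). These 3 genes were alike in EBC-1 and SK-MES-1, as was *HLA-F*. The constitutive proteasome subunits *PSMB5*, *PSMB6* and *PSMB7*, which the immunoproteasome subunits replace, were between -0.30 and 0.04 in both lines.

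In the *siDONSON* arrays 8 of the 39 measured genes of the list passed, 4 in each direction, against 6% of all genes. The chaperones that fold heavy chains fell together, 3 of 4. Calreticulin (*CALR*) was -1.03, -1.17 and -1.17 (mean -1.12, SE 0.09, limma adjusted p = 0.00261). Calnexin (*CANX*) was -0.52, -1.43 and -0.72 (limma adjusted p = 0.0279), with *siDONSON-2* the lowest, and *PDIA3* was -0.66, -0.50 and -0.81 (limma adjusted p = 0.0208). These genes serve the folding of many glycoproteins besides class I chains. *RFX5*, which binds class I and class II promoters, fell by 0.41 (limma adjusted p = 0.0394). *MICA* and *MICB*, stress-induced ligands of the natural killer receptor NKG2D, rose by a mean of 0.61 (limma adjusted p = 0.0449) and 0.72 (limma adjusted p = 0.0378), and *MICB* was highest with *siDONSON-2* (1.2). The probes of *MICB* did not move alike. The brighter, A_23_P387471, read 0.06, 0.92 and 0.08, and the dim A_24_P169688 read 0.86, 1.49 and 0.90. The rise of *MICB* with *siDONSON-1* and *siDONSON-3* thus rests on the dim probe. *PSMB9* (0.49, limma adjusted p = 0.032) and the kinase gene *JAK1* (0.48, limma adjusted p = 0.0309) also rose.

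In the *LOXL2*-edited arrays 5 of the 42 measured genes of the list passed, which is no more than the 14% of all genes called there. *IRF9* was 0.67, 0.93 and 0.72 (mean 0.77, SE 0.12, limma adjusted p = 0.00824), so that it was high on all 3 arrays. *IFNGR2*, a chain of the interferon gamma receptor, fell by 0.49 (limma adjusted p = 0.0134). *ULBP1*, another NKG2D ligand, was -0.86, -1.38 and -1.18 (limma adjusted p = 0.014). *HLA-DMB*, which loads class II molecules, was -2.74, -1.58 and -0.58, a wide spread in 1 direction (limma adjusted p = 0.0219). The immunoproteasome and activator genes of the list had a median of -0.05 over 5 genes. Among them *PSMB9* was 0.21, 0.13 and 0.08, and *PSMB10* was -0.41, -0.41 and -0.44. The plot of group means by role shows where the filled points lie.

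**Figure D3:**
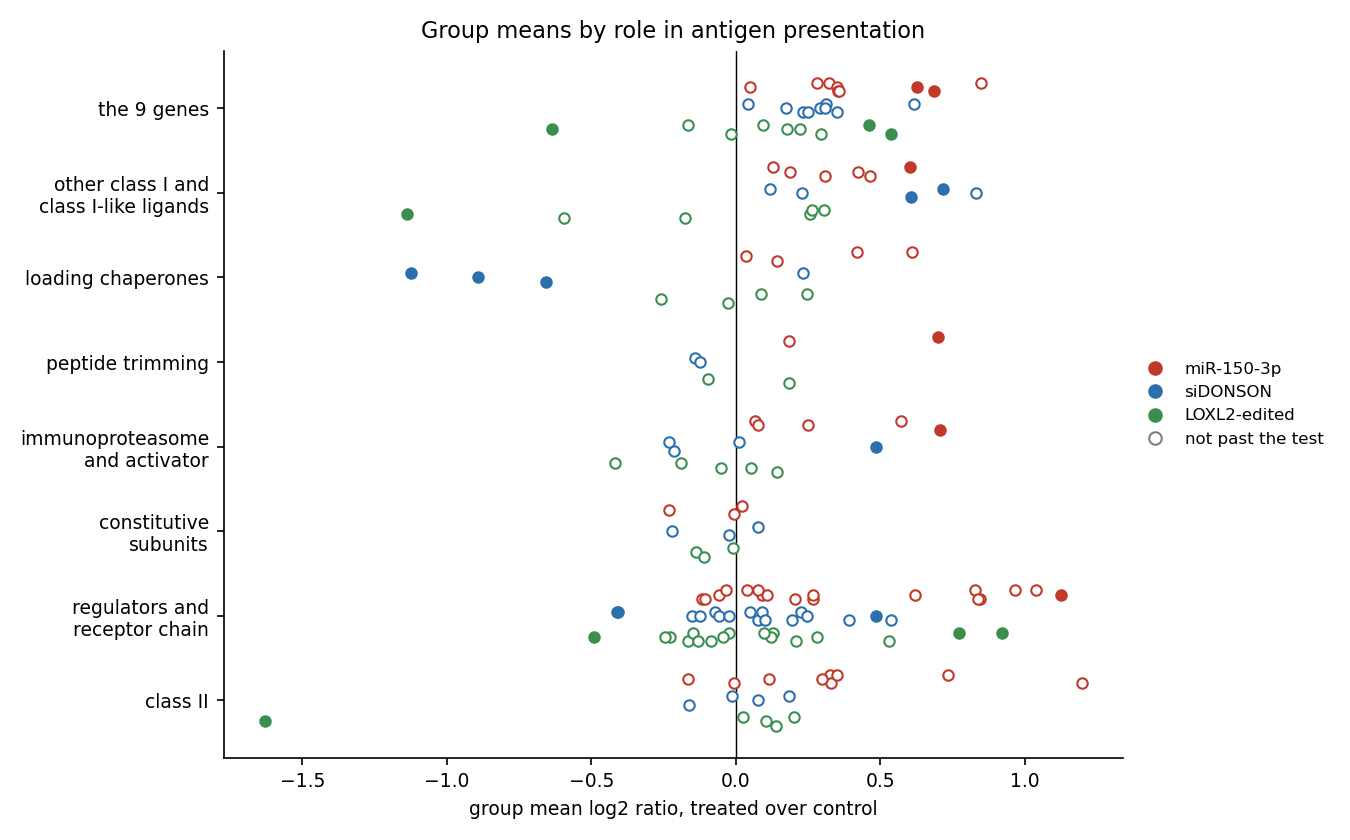
Group mean log2 ratio of treated over control RNA (horizontal axis) for the 9 genes and the measured genes of the list, sorted by role (vertical axis) and colored by group. Filled points passed the test. Of the loading chaperones, 3 of 4 lie between -1.12 and -0.66 in the *siDONSON* arrays, and the 9 genes lie above 0 in the *miR-150-3p* and *siDONSON* groups.

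The genes most like the 9 were sought by Pearson r with the median of the 9 over the 8 arrays, which ran from 0.10 in A549-GE2 to 0.48 in EBC-1. The 5 highest among 12853 genes were *AP2A2* (r = 0.982), *LINC00597* (0.980), *TMC6* (0.976), *PBXIP1* (0.970) and *LINC02595* (0.963). *AP2A2* encodes a subunit of the clathrin adaptor AP-2. Its log2 ratio was 0.89 in EBC-1 cells and 0.55 in SK-MES-1 cells, -0.01 to 0.19 in the *siDONSON* arrays and -0.27 to -0.12 in the edited arrays. Of the 9 genes themselves, *TAPBP* followed the median best (r = 0.935) and *HLA-E* ran against it (r = -0.615). The arrays share a slide and a dye order and fall into 3 groups, so r describes the order of the groups.

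In their control cells, the 4 lines differed widely in class I expression. The log2 green signal of control cells, after quantile scaling of the average signals between arrays, was highest in EBC-1 and next in SK-MES-1 for all 9 genes. The values describe levels with no test, since EBC-1 and SK-MES-1 have 1 control array each and the 3 arrays of the other lines may hold the same RNA, and they are compared within a probe between lines and not between genes. In such samples, fewer cells with a transcript and less transcript per cell cannot be told apart. The median difference of the 9 genes between EBC-1 and SBC-3 was 2.76 (all genes 0.01), and all 9 were past 1, as were 18.9% of all 11271 genes. Between EBC-1 and A549 it was 2.23 (all genes 0.01), and again 9 of 9 were past 1, against 15.1%. SK-MES-1 exceeded SBC-3 by a median of 1.5 (7 of 9 past 1, against 16.1%) and A549 by 1.33 (7 of 9 past 1, against 11.3%). EBC-1 exceeded SK-MES-1 by 0.98, with 4 of 9 past 1, against 13.8%.

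*HLA-C* had the widest range. Its level was 16.60 in EBC-1, 15.62 in SK-MES-1, 13.50 to 13.58 in SBC-3 and 11.22 to 11.32 in A549, so that EBC-1 was 39.9-fold above A549. *HLA-C* rests on 1 probe. For all heavy chain genes, such differences may hold unequal binding of the alleles of each line or of other heavy chain RNA, which was not tested. *HLA-F* was 15.33, 13.40, 10.86 to 10.97 and 11.05 to 11.10 in the same order, and EBC-1 was 21.2-fold above SBC-3. Its second probe was not well above background in SBC-3 and was at least 28.1-fold higher in EBC-1. *HLA-B* was 14.80, 13.47, 10.76 to 10.82 and 10.60 to 10.77, so that its SBC-3 and A549 values overlapped. For *HLA-E* the picture depended on the probe, with a difference of 3.58 between EBC-1 and A549 at A_32_P460973 and of 0.51 at the much brighter A_33_P7431456. By the latter, SBC-3 (16.95) was above SK-MES-1 (16.84).

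*B2M* was 16.08 in EBC-1, 13.92 in SK-MES-1, 12.99 to 13.02 in SBC-3 and 12.57 to 12.60 in A549. This order had no overlap, and EBC-1 was 4.46-fold above SK-MES-1. The 3 loading genes had SBC-3 at the bottom, as did *HLA-F*. *TAP1* was 12.80 in EBC-1, 12.02 in SK-MES-1, 10.70 to 10.82 in SBC-3 and 11.53 to 11.67 in A549. *TAP2* was 10.99, 9.70, 8.14 to 8.35 and 9.24 to 9.32, and *TAPBP* was 10.47, 10.40, 8.32 to 8.60 and 9.10 to 9.19. EBC-1 and SK-MES-1 differed by 0.07 in *TAPBP*, which is less than the SD of 0.16 between the SBC-3 arrays. *NLRC5* was 7.90, 7.19, 5.45 to 5.87 and 5.55 to 5.76, so that SBC-3 and A549 were not distinct. Between SBC-3 and A549 the genes went both ways. *HLA-C* was 4.82-fold higher in SBC-3, while *TAP2* in SBC-3 was 0.485 of its A549 level and *TAP1* 0.557. The median difference of the 9 genes between these lines was 0.02, with 1 of 9 past 1 in each direction, against 14.7% and 15% of all genes.

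**Figure D4:**
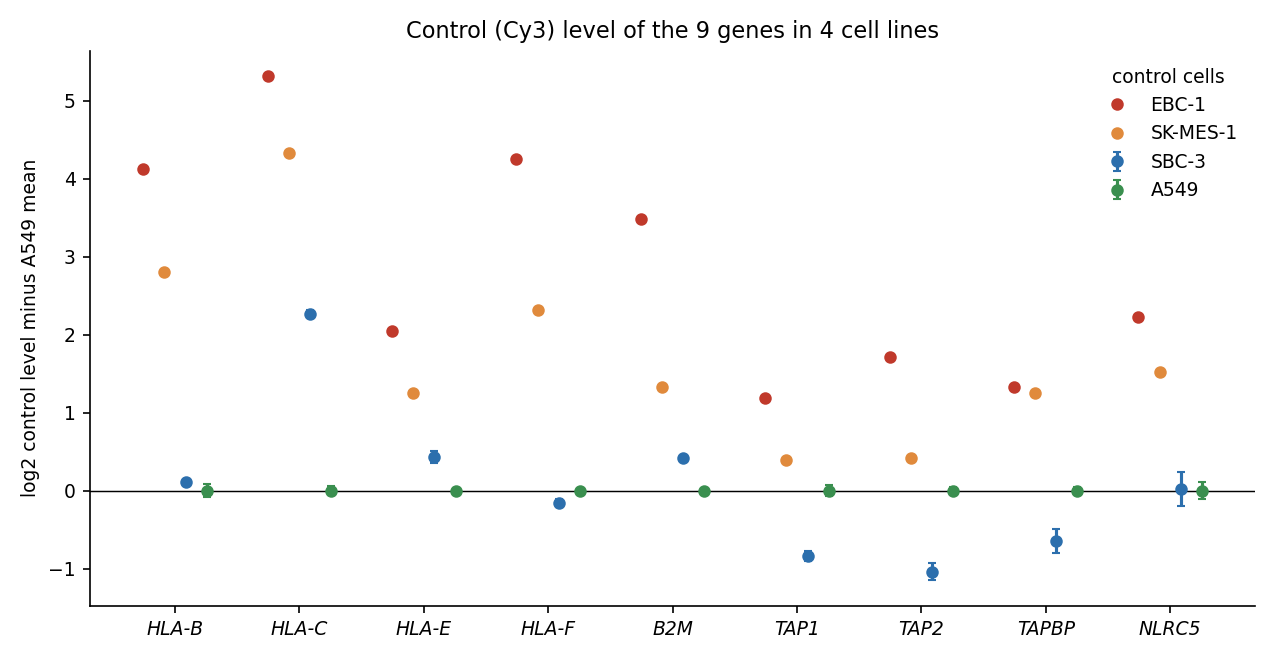
Control (Cy3) log2 level of the 9 genes in the 4 lines relative to the A549 mean (vertical axis). Points are the single array of EBC-1 and SK-MES-1 and the mean of 3 arrays of SBC-3 and A549, with their SD (bars). EBC-1 lies highest for every gene, and SBC-3 lies above A549 for *HLA-C* and below it for *TAP1*, *TAP2* and *TAPBP*.

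Class II presentation, which is normally a feature of specialized immune cells, was also most complete in EBC-1. In control cells, 9 of 10 class II genes of the list were well above background in EBC-1, 6 in SK-MES-1, 4 in A549 and 3 in SBC-3. Of all spots, 41.1% were above it in EBC-1, 46.4% in SK-MES-1, 45.2% to 45.5% in A549 and 42.2% to 43.0% in SBC-3. A gene was counted when any of its probes was above background, and *HLA-DQB1* had 5 probes. Of 4 leukocyte markers with a probe, 3 were above background in EBC-1 and 2 in each other line, and their part in these levels was not tested. The activator *CIITA* was above background in EBC-1 and SK-MES-1 and not in the others. The immunoproteasome gene *PSMB9* was 12.13 in EBC-1, 9.98 in SK-MES-1, 8.31 in SBC-3 and 10.38 in A549, and thus followed *TAP1* in having SBC-3 at the bottom.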

How the data were processed

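RNA of treated cells (Cy5) and of control cells (Cy3) was hybridized together on 8 Agilent arrays, all on 1 slide. The authors scanned the arrays and deposited the output of Feature Extraction 12.1.1.1 (protocol GE2_1200_Dec17, probe design annotated on GRCh37), in which the red and green processed intensity of each spot is already background-subtracted and dye-normalized. The deposited log10 ratios of the same arrays were used to check the direction, red over green. They were also refitted as an alternative, which could only return the same calls because the ratios are the same.

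Here log2 ratios of the processed intensities were averaged over the spots of a probe, after control spots and spots marked as outliers were left out (81 to 133 marked spots per array, 0 saturated). Between 41.1% and 46.4% of spots in green and 48.5% and 56.2% in red were well above background and precision is limited by how few arrays there are. Of 58201 probes, 31104 were named through RefSeq accessions. A gene was the mean of its probes that were well above background in at least 1 channel on every array of a group, and contrasts used probes that met this on all 8 arrays. Group means were fitted with limma 3.58.1 in R 4.3.3 (5 residual degrees of freedom), with Benjamini-Hochberg adjustment over all genes and a threshold of 0.05. Control levels used green intensities scaled with Aquantile and probes above background in green on all 8 arrays, as a description. The fit was tested on simulated data with 100 changed genes per size: at a log2 change of 0.5 it called 2, 7 and 11 of them for the *miR-150-3p*, *siDONSON* and *LOXL2*-edited groups, and at 1 it called 51, 75 and 88.

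The alternatives were normexp (offset 50) with loess, median centering, no background filter, both channels above background, the brightest probe and each group's own spread. Others were marked spots kept, the deposited ratios, a replicate block, another scaling of the levels, and leaving out each array. Normexp was run on median spot signals, because the mean signals were not used here. The genes and lists were chosen with earlier results of these data known. The genes named are the 9 members, the 49 listed genes, the targeted genes and the 5 genes most like the median of the members, and some listed genes and markers that enter the counts are not reported here. Promoter sequences are from RefSeq (GRCh38.p14), and the sequence of *miR-150-3p* is not given here.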

Additional observations from a re-analysis of the deposited data

Results flagged for a closer look

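These differences between groups passed limma's test of the difference itself (Benjamini-Hochberg adjusted p below 0.05), and are given on the log2 scale. Among the 9 class I genes, *TAP2* differed by 0.94 between *siDONSON* and *LOXL2*-edited arrays (limma adjusted p = 0.0214). Of the folding chaperones, *CALR* and *PDIA3* passed and *CANX* did not (limma adjusted p = 0.0874 and 0.123 for its differences of *siDONSON* from the other groups). *CALR* was 1.54 higher after *miR-150-3p* than with *siDONSON* (limma adjusted p = 0.00426), and *siDONSON* minus *LOXL2*-edited was -1.37 (limma adjusted p = 0.00191). *PDIA3* showed the same directions, with differences of 0.80 (limma adjusted p = 0.0401) and -0.63 (limma adjusted p = 0.0358). The trimming gene *ERAP1* was higher after *miR-150-3p* than with *siDONSON* by 0.84 (limma adjusted p = 0.0247) and than in the edited arrays by 0.80 (limma adjusted p = 0.0238).

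Among the interferon pathway genes, *IRF9* was 0.90 higher after *miR-150-3p* than with *siDONSON* (limma adjusted p = 0.0424), and *IFNGR2* was 0.76 higher after *miR-150-3p* than in the edited arrays (limma adjusted p = 0.0283). *RFX5* was lower with *siDONSON* than in the edited arrays (difference -0.51, limma adjusted p = 0.0414). The ligand gene *MICA* was higher with *siDONSON* than in the edited arrays by 0.78 (limma adjusted p = 0.0439). Each group is another cell line and another treatment, which cannot be told apart.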

How the results depend on the processing

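Recomputing under the alternatives gave 971 results, for single genes and for numbers of called genes or median level differences. Of those for single genes, 681 kept their direction and side of the threshold, 30 lost and 33 gained a call, and 21 turned direction. Of the others, 122 stayed alike or close, 46 numbers of calls fell and 27 rose. Among the level differences, 5 turned direction and 6 moved. Results from the deposited ratios, which are the same ratios, could only stay the same. The cause of the changes was not tested. Normexp with loess called 1598, 1600 and 3171 of all genes in the *miR-150-3p*, *siDONSON* and *LOXL2*-edited arrays, against 482, 866 and 2167. It called 7 of the 9 genes after *miR-150-3p* (all except *TAP2* and *NLRC5*), against 11.2% of all genes. With *siDONSON* it called 3 (*HLA-E*, *HLA-F* and *TAP1*), against 11.1%, and in the edited arrays 4 (*HLA-C*, *HLA-E*, *HLA-F* and *TAP2*), against 20.4%. It called 12 listed genes in the *miR-150-3p* and 12 in the edited arrays, and 7, 7 and 9 listed genes between groups. Between *miR-150-3p* and edited arrays it called 4 of the 9 genes (*B2M*, *HLA-F*, *TAP2* and *TAPBP*), against 7.21%. It turned *TAPBP* in the edited arrays to 0.071 and the *HLA-B* difference of *siDONSON* from edited arrays to 0.0148, and moved the median level difference of SK-MES-1 to 1.1 from SBC-3 and 1.16 from A549. With no filter, 0 of the 9 genes and 1 listed gene were called in the *miR-150-3p* arrays, against 198 of all 22439 genes. There were 1 of the 9 with *siDONSON* (2897 of all 22438 genes) and 9 listed genes in the edited arrays (5375 of all 22439 genes). *TAP2* (-0.23 after *miR-150-3p*, -0.12 with *siDONSON*) and *HLA-F* (-0.0776 with *siDONSON*) turned. With both channels above background, 7 listed genes after *miR-150-3p* (852 of all 12547 genes) and 1 of the 9 with *siDONSON* (1025 of all 13034 genes) were called. *NLRC5* turned to -0.0895 after *miR-150-3p*. The brightest probe also gave -0.0895 for *NLRC5* and 1 call of the 9 with *siDONSON* (1027 of all 14443 genes). This setting turned *TAPBP* in the edited arrays to 0.33, the *HLA-B* difference to 0.00675 and the median level difference of SBC-3 from A549 to -0.0501. With each group's own spread, 0 of the 9 and 0 listed genes were called after *miR-150-3p*, where 0 of all 14219 genes were. With *siDONSON*, 0 listed genes were called, against 26 of all 14443 genes, and in the edited arrays 16, against 5940 of all 15523 genes. Median centering turned *TAP2* after *miR-150-3p* to -0.00681 and *B2M* with *siDONSON* to -0.00245, and the share of all calls that were higher went from 46.3% to 32.9%, 54.0% to 42.6% and 52.3% to 43.8%. Scaling to the 75th percentile gave a median level difference of 1.35 for EBC-1 from SK-MES-1 and -0.0948 for SBC-3 from A549.

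Leaving out 1 array at a time, calls among the 9 genes ran from 0 to 4 (*miR-150-3p*), 0 to 1 (*siDONSON*) and 0 to 4 (edited), and among listed genes from 0 to 11, 1 to 9 and 0 to 9. Between groups they ran from 0 to 2 of the 9 in each contrast, and from 1 to 10, 0 to 7 and 1 to 6 listed genes. *B2M* with *siDONSON* ran from -0.0224 to 0.14, *TAPBP* in the edited arrays from -0.0304 to 0.00573, and the differences of *miR-150-3p* from *siDONSON* from -0.00343 to 0.25 (*HLA-C*), -0.0822 to 0.0296 (*HLA-E*) and -0.19 to 0.65 (*TAP1*). *HLA-C* ran from -0.0665 to 0.19 between *miR-150-3p* and edited arrays, and *HLA-B* from -0.0917 to 0.0888 between *siDONSON* and edited arrays. The median level differences ran from 1.42 to 1.59 (SK-MES-1 from SBC-3) and from -0.0675 to 0.12 (SBC-3 from A549). Where 1 *miR-150-3p* array was left, it was assumed to vary like the other groups.

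With the replicate block, *TAP2* differed by 0.94 between *siDONSON* and edited arrays (limma adjusted p = 0.0401) and 3 listed genes were called, against 5. Over these 6 arrays 481 genes were called with the block and 1367 without it. Same-numbered arrays deviated with correlations of -0.016, -0.025 and -0.011, so the numbers did not pair them.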
